A study of Mus musculus with 22 samples.

Results

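The 9 genes of the red cell program described here were followed through every library: the alpha globins Hba-a1 and Hba-a2, the beta globins Hbb-bs and Hbb-bt, and 5 genes of red cell maturation (Alas2, Slc25a37, Bpgm, Fech and Bnip3l). They were taken by name, 9 of the 31053 genes counted, and read in all called barcodes and in 3 bins of detected genes per barcode: under 200, 500 or more, and the middle bin in between. Each barcode marks 1 droplet. Transcripts were counted through their unique molecular identifiers (UMIs), and levels are given per 1000000 UMIs of the library or bin (CPM). The bins rest on the same counts as the levels, so levels in different bins are described side by side, and tests compare libraries within a bin or ask whether the difference between ntCZC and tissue differs between bins.

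All mice carried Prom1-CreERT2, a tamoxifen-inducible recombinase expressed from the Prom1 locus, and Rosa26ZSG, a ZsGreen tag left on in recombined cells and their progeny. Groups differed in the sodium leak channel gene Nalcn, labelled wt, het or null, for which the study used a conditional allele. ntCZC libraries held blood cells of tumor-free mice sorted for the tag (2 wt, 4 het and 4 null, 551 to 649 days old). Tissue libraries held stomach, lung, liver and kidney pooled with uterus or epididymis from tumor-free mice (5 wt, 2 het and 2 null, with ages in the 11 tissue libraries from 551 to 654 days), marked by hashtag antibodies, and 2 further tissue libraries with conflicting labels entered no comparison. There was 1 library of peripheral blood mononuclear cells (PBMC) from a 120-day-old wt mouse. Animals had been perfused with saline and collagenase before dissection, and peripheral blood had gone through red cell lysis before cell sorting. A lysis step for the organ suspensions was not given in the sources used here. The labels named no animals, so n counts libraries and p-values measure the spread between libraries.

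Red cells lose their nucleus in the last steps of maturation and leave the marrow as reticulocytes, which still hold RNA for some days. Hemoglobin is built from paired alpha and beta chains, each holding a heme. Heme synthesis starts in the mitochondrion with Alas2, the erythroid form of the rate-limiting enzyme, uses iron brought in by the carrier Slc25a37 (mitoferrin-1), and ends with Fech (ferrochelatase), which inserts the iron. Bpgm makes 2,3-bisphosphoglycerate, which lowers the oxygen affinity of hemoglobin, and Bnip3l (Nix) is the receptor through which reticulocytes clear their mitochondria.

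The blood libraries were small. ntCZC libraries held 50 to 621 barcodes and 161541 to 2600526 UMIs, against 1856 to 27857 barcodes and 8571019 to 139793927 UMIs in the grouped tissue libraries and 752 barcodes in the PBMC library. Mitochondrial UMIs made up 2.04% to 6.38% of ntCZC and 20.7% to 52.3% of tissue libraries. Nalcn had 0 UMIs in each ntCZC library and in the PBMC library, so its deletion could not be checked in blood. In tissue it stood at 0 to 0.204 CPM in the 5 wt libraries (0 to 18 UMIs), at 0.158 and 0.104 CPM in het, and at 0.272 and 0.386 CPM in the libraries labelled null (6 and 18 UMIs), which lay above every wt library. Nalcn was thus not lower in the libraries labelled null. Counts this low, from organs in which only Prom1-expressing cells and their progeny recombine, cannot check the label. Whether these 3' reads lie in the deleted part of the gene was not given in the sources used here. Tissue null replicate 3, labelled female, held reads of Y-linked genes as well as Xist. Of 175975 distinct barcode sequences 3900 occurred in more than 1 library, and 160 of the 3253 blood barcodes recurred in a tissue library.

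The sequences just upstream of 6 of the genes are shown because the 9 genes are read together as a program. Each line gives the 120 bases before the RefSeq transcription start (GRCm38.p6), with the letters CCAAT, the letters CACCC, the letters TATAA or the letters AGATAA, in either orientation, in capitals. In that order these are the cores of the CCAAT box, of the CACCC box read by Klf1, of the TATA box and of the Gata1 site. They lie at chr11:32283552-32283671 (Hba-a1, plus strand), chr11:32296372-32296491 (Hba-a2, plus), chr7:103827929-103828048 (Hbb-bs, minus), chr7:103813924-103814043 (Hbb-bt, minus), chrX:150547297-150547416 (Alas2, plus) and chr6:34476236-34476355 (Bpgm, plus).
Hba-a1: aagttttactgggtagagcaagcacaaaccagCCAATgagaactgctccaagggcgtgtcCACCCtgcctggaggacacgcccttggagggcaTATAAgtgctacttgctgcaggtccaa
Hba-a2: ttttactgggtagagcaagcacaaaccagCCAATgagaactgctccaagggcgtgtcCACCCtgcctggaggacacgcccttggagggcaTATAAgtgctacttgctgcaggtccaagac
Hbb-bs: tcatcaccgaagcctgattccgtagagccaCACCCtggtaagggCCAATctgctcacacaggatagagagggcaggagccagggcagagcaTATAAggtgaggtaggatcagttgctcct
Hbb-bt: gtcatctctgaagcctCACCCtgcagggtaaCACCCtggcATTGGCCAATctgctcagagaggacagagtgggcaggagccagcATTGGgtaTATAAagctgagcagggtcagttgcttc
Alas2: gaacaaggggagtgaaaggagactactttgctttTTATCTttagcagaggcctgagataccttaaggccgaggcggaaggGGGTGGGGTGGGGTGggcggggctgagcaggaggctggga
Bpgm: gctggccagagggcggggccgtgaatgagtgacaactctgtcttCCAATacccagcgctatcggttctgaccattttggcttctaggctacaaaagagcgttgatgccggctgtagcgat

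All 4 globin sequences held the CCAAT letters, the CACCC letters and the TATAA letters, a combination found in 226 of 32851 upstream sequences of the same length (0.688%). Separately, CCAAT was found in 21.3% of them, CACCC in 31.7%, TATAA in 11.8% and AGATAA in 4.36%. TATAA began between -30 and -27 in the 4 globins, counted from the start. Hbb-bt held 3 matches to CCAAT and 2 to CACCC. Alas2 held AGATAA in reverse (TTATCT) at -86 and 3 adjoining copies of CACCC in reverse (GGGTG), and Bpgm held CCAAT only. A match is a description of letters and not a site.

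The paired globin genes are hard to tell apart. Hba-a1 and Hba-a2 matched at 428 of 429 coding bases and at 95.1% of the aligned upstream bases, and all 74 bases after the Hba-a1 stop codon matched in Hba-a2. Hbb-bs and Hbb-bt matched at 443 of 444 coding bases but at 70.1% of the bases after the stop codon, the part that 3' reads cover, and at 74.6% upstream. The split between Hba-a1 and Hba-a2 is therefore uncertain, and that between Hbb-bs and Hbb-bt less so. In the annotation (GRCm38) Hba-a1 spans chr11:32283511-32284465, Hba-a2 chr11:32296489-32297298, Hbb-bs chr7:103826534-103828096 and Hbb-bt chr7:103812524-103813996. Of the maturation genes, Alas2 spans chrX:150547375-150570638, Bpgm chr6:34476207-34505613, Bnip3l chr14:66985239-67008877 and Slc25a37 chr14:69241848-69285112.

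The first comparison asked how much of each transcript blood and organs held over all barcodes. The globins, Alas2 and Bpgm stood several-fold higher in ntCZC than in tissue, Bnip3l moderately higher, and Slc25a37 and Fech at like levels. Hbb-bs, the most abundant member, ranged from 2485 to 436756 CPM in ntCZC (median 38909, n = 10) and from 2098 to 19931 CPM in tissue (median 5579, n = 9). The groups overlapped only through ntCZC het replicate 2 and wt replicate 1, at 2485 and 10312 CPM, and wt replicate 3 was the highest. In PBMC it stood at 49182 CPM (95% Poisson interval 48818 to 49548, counting error only).

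The other globins also had higher medians in ntCZC. Hba-a1 had medians of 9548 and 1417 CPM in ntCZC and tissue, Hba-a2 6566 and 986, and Hbb-bt 5989 and 857. Alas2, a far rarer transcript, ranged from 0 to 1387 CPM in ntCZC (median 125) and from 8.51 to 73.3 CPM in tissue (median 20.4). Its 0 was in het replicate 2, and wt replicate 1 (47.3 CPM) also lay within the tissue range. Bpgm had medians of 88.1 and 16.4 CPM, and Bnip3l of 259 and 140 CPM. Bnip3l ranged from 173 to 365 CPM in ntCZC and from 90.7 to 214 in tissue, and ntCZC het replicates 1 and 3 lay within the tissue range. Slc25a37 (39.0 and 37.9 CPM) and Fech (30.3 and 27.9 CPM) had medians that hardly differed.

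In edgeR's quasi-likelihood fit, adjusted by Benjamini-Hochberg over 10681 genes, 7 of the 9 members were higher in ntCZC, against 28.5% of all genes tested. The log2 differences were 4.56 to 4.77 for the 4 globins (adjusted p 0.000343 to 0.000543). They were 4.21 ± 0.93 (SE) for Alas2, 4.02 ± 0.84 for Bpgm and 1.09 ± 0.27 for Bnip3l (adjusted p 0.000531, 0.000316 and 0.00137). Slc25a37 (0.31 ± 0.39) and Fech (0.75 ± 0.52) did not pass. The median over all genes was -0.08. Without ntCZC wt replicate 3, the library with the highest globin levels, the same 7 passed with smaller differences, 2.21 to 2.39 for the globins, 2.26 for Alas2 and 2.24 for Bpgm. With a block for same-numbered ntCZC and tissue libraries, which keeps only libraries with such a partner, 1 member passed. Fewer red cells and less RNA per red cell cannot be told apart in sums over barcodes.

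**Figure D1:**
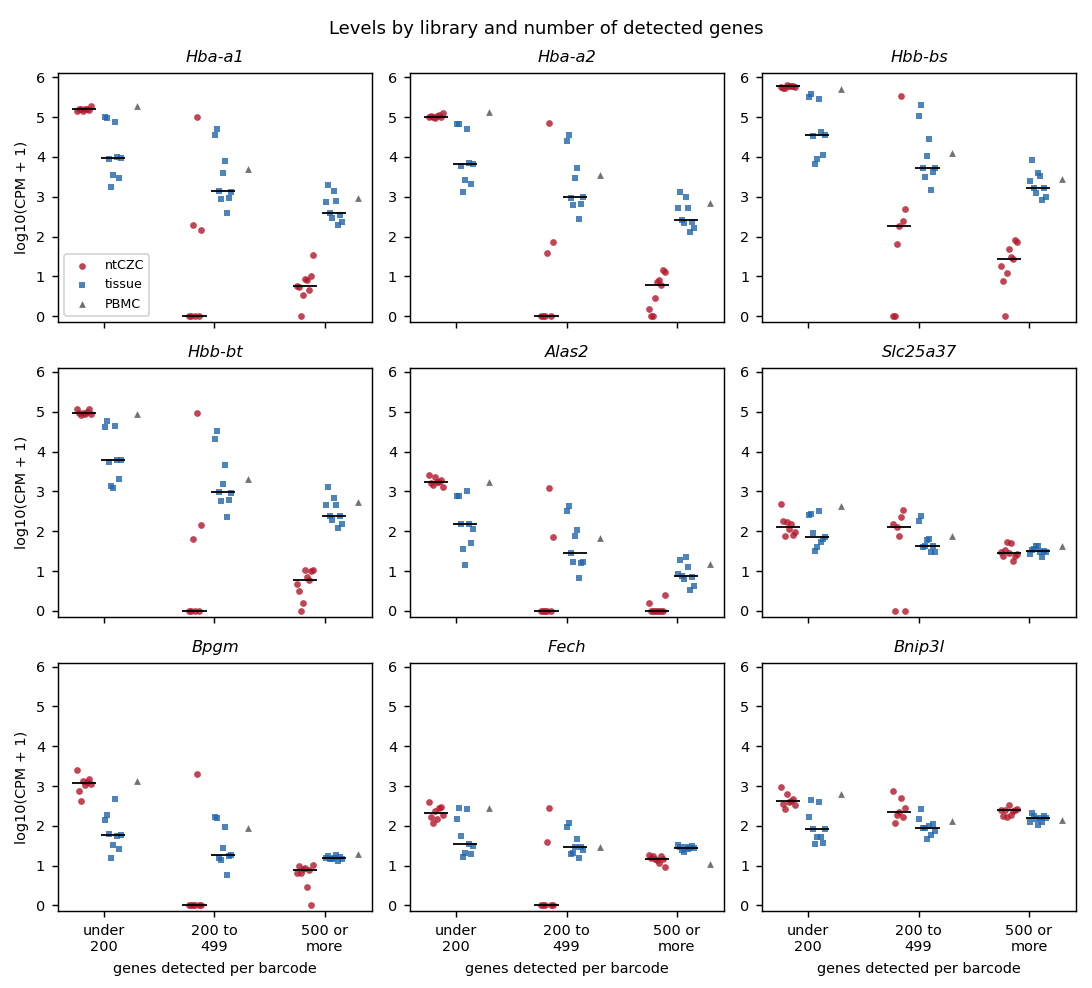
Log10(CPM + 1) of the 9 members in each library with at least 10 barcodes in the bin, by bin of detected genes, with ntCZC, tissue and PBMC libraries in separate colors and bars at group medians. In barcodes with 500 or more genes the ntCZC globins lie below all tissue libraries, and for Hbb-bs in barcodes under 200 genes they lie above all of them.

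The globin transcripts of blood lay mostly in barcodes with few genes. In the median ntCZC library 99.9% of Hba-a1 and Hbb-bs UMIs, 99.8% of Hbb-bt UMIs, and 99.5% of Alas2 UMIs, came from barcodes with under 200 genes (shares over libraries with at least 20 UMIs of the gene). In the median tissue library these shares were 39.0%, 40.8%, 33.2% and 35.1%. The lowest ntCZC shares, in null replicate 1, were 87.4% for Hbb-bs, 78.8% for Hbb-bt and 84.8% for Alas2. PBMC had 93.3% of its Hbb-bs UMIs under 200 genes. Bpgm (82.2% and 10.3%) and Fech (54.9% and 7.08%) were also placed lower in blood, but less completely. Slc25a37 had 31.5% and Bnip3l 11.8% of its ntCZC UMIs there, and most UMIs of both came from barcodes with 500 or more genes (63.4% and 87.6%).

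Among barcodes with under 200 genes, each member was more abundant in blood than in organs. Hbb-bs ranged from 363529 to 637475 CPM in ntCZC (median 587393, n = 10) and from 6497 to 377817 CPM in tissue (median 34992, n = 9). Every ntCZC library but het replicate 2, which held 4 such barcodes, lay above every tissue library. Alas2 ranged from 1303 to 2642 CPM in the other 9 ntCZC libraries and from 12.9 to 1032 CPM in tissue, with no overlap. Bpgm had medians of 1071 and 57.1 CPM, Fech 204 and 35.0 CPM, and Bnip3l 410 and 79.9 CPM. Slc25a37 differed least, at 129 and 70.4 CPM.

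In the 8 ntCZC and 9 tissue libraries with at least 10 such barcodes, 9 of 9 members passed as higher in ntCZC, against 29.5% of the 227 genes that could be tested. The log2 differences were 3.69 to 3.86 for the globins, 3.81 ± 0.77 for Alas2, 4.38 ± 0.69 for Bpgm, 2.48 ± 0.58 for Fech, 2.68 ± 0.52 for Bnip3l and 1.11 ± 0.41 for Slc25a37 (edgeR quasi-likelihood test, adjusted p 6.03e-06 to 0.0160). The median over all genes tested was -1.47. A gene could pass the low-count filter through the ntCZC libraries alone, so these calls and the share beside them are a description. Mitochondrial UMIs were 1.14% of this bin in the median ntCZC and 86.8% in the median tissue library. Among barcodes with at most 20% mitochondrial UMIs the globin differences fell to between 1.55 and 1.65, Fech (0.37) and Bnip3l (0.52) no longer passed, and Slc25a37 turned to -0.98 and passed as lower. With no filter on low counts 2 members passed, Alas2 and Bpgm. With the block for same-numbered libraries 4 members passed. Slc25a37 also fell short without any of ntCZC null replicates 1 and 4, tissue wt replicate 2 and tissue null replicate 2, with log2 differences of 1.21, 0.94, 0.69 and 0.34.

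In the middle bin the blood libraries split. The globins held 61.5% to 80.4% of UMIs in ntCZC null replicates 1 and 3 and wt replicate 3 and at most 0.0862% in the other 7 libraries. Hbb-bs was accordingly at 0 in 3 ntCZC libraries and reached 461822 CPM in the highest, against 1447 to 199569 CPM in tissue. wt replicate 3 and null replicate 3 held 6 barcodes each in this bin and het replicate 2 held 1, too few to enter the fit, so null replicate 1 was the only library with abundant globins in it. No member passed over the 7 ntCZC and 9 tissue libraries left, against 40.8% of all genes in either direction. The edgeR log2 differences ran from -9.14 to -0.02, with no member at an unadjusted p under 0.05, while DESeq2 called 4, the globins, as lower. Without ntCZC null replicate 1, and so with no globin-high ntCZC library in the fit, 9 members passed as lower in ntCZC, and without tissue wt replicate 4 or tissue null replicate 3, 2 did, Hba-a1 and Hbb-bs.

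In barcodes with 500 or more genes the order turned around. Hbb-bs was at 0 to 198.9 CPM in ntCZC (median 27.7, n = 10) and at 831 to 8501 CPM in tissue (median 1619, n = 9), with no overlap. The PBMC library, also of blood, stood at 2800 CPM, within the tissue range and above every ntCZC library, and its Alas2 at 14.3 CPM (17 UMIs). Alas2 had 3 UMIs over all ntCZC libraries, 8 of them at 0, and 2.40 to 21.8 CPM in tissue. Pooled over libraries, the Alas2 level in tissue was 42.4 times that in ntCZC (95% interval 14.5 to 205, counting error only). Bpgm (medians 5.996 and 14.7 CPM) and Fech (13.4 and 27.5 CPM) were lower in ntCZC with no overlap. Bnip3l was higher (242 and 153 CPM), and Slc25a37 was at 27.4 and 30.5 CPM.

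Over 9 ntCZC and 9 tissue libraries, 7 of 9 members passed as lower in ntCZC, against 39.6% of 11997 genes, and 1 passed as higher, against 26.2%. The log2 differences were -6.96 to -6.52 for the globins, -1.33 ± 0.21 for Bpgm and -1.14 ± 0.14 for Fech. Alas2, 1 of the 7, had 3 ntCZC UMIs in this bin and could enter the fit through tissue alone, so its call is not read and no size is given. Bnip3l differed by 0.45 ± 0.13 (edgeR quasi-likelihood test, adjusted p 0.00560) and Slc25a37 by -0.27 ± 0.19 (adjusted p 0.212). With at most 20% mitochondrial UMIs Bnip3l fell short (0.25).

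Barcodes of cells that should lack globin transcripts were taken for comparison. Barcodes with 500 or more genes and UMIs of all 3 B cell markers Cd79a, Cd79b and Ms4a1, a choice made after the data had been seen, held 0 to 115 globin CPM in ntCZC, 189 in PBMC and 1169 to 10298 in the 9 tissue libraries with a labelled genotype. Their median depths were 3242 and 2204 UMIs in the median ntCZC and tissue library. Over all barcodes with 500 or more genes the globins held 0% to 0.0278% of ntCZC and 0.127% to 1.31% of tissue UMIs, with medians of 0.00445% and 0.252%, and 0.491% of PBMC UMIs. B-marker barcodes, a subset of these, had medians of 47.1 and 4678 globin CPM, so no globin expression is read from the counts of gene-rich barcodes, whose source was not tested. Alas2 had 0 UMIs in the B-marker barcodes of ntCZC, which allows up to 1.67 CPM, and 1.70 to 27.7 CPM in those of tissue. Slc25a37 and Bnip3l were counted there in each ntCZC library, with 27 and 135 UMIs in het replicate 3.

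The difference between kinds itself differed between the lowest and highest bin for 8 of 9 members, against 0.985% of 10354 genes tested in that direction. Each library was its own block in this model. Under 200 genes the log2 difference exceeded that at 500 or more genes by 9.27 to 9.55 for the globins. The excess was 5.14 ± 0.55 for Bpgm, 2.75 ± 0.43 for Fech and 1.36 ± 0.43 for Bnip3l. Alas2, 1 of the 8, had 3 UMIs in ntCZC barcodes with 500 or more genes, so neither its call nor its size is read. Slc25a37 (0.38 ± 0.43) did not pass. The median over all genes was -9.90. Barcodes under 200 genes held 87.3% to 97.1% globin UMIs in the ntCZC libraries of this fit and 1.10% to 59.5% in tissue. The bins thus hold unlike barcodes in ntCZC and tissue, and a large difference for the globins was set by the bins. The count of members and the share over all genes are a description. With at most 20% mitochondrial UMIs Fech (1.51) and Bnip3l (0.60) fell short.

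**Figure D2:**
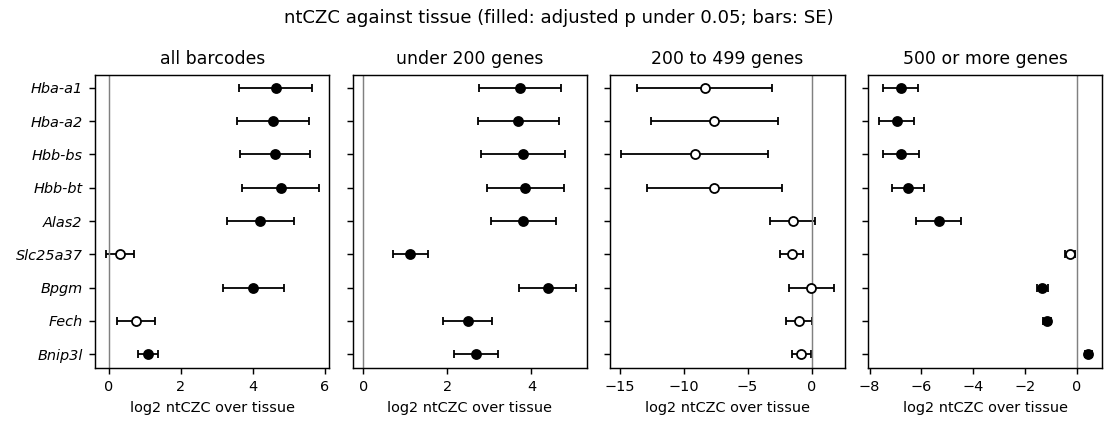
Log2 difference between ntCZC and tissue for each member in all barcodes and in each bin (points, edgeR estimates, filled where the adjusted p was under 0.05; bars, standard errors). The globins run from 3.69 to 3.86 in barcodes under 200 genes to -6.96 to -6.52 in barcodes with 500 or more genes. Genes could enter the fits of these bins through ntCZC or through tissue alone, so both ranges are a description.

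Barcodes in which the 4 globins held at least 50% of UMIs are here called globin-rich. There were 2 to 73 per ntCZC library, 2 to 1001 per grouped tissue library and 49 in PBMC. As a share of barcodes this was 2.00% to 28% in ntCZC (median 6.08%), 0.0549% to 7.79% in tissue (median 0.703%) and 6.52% in PBMC. In ntCZC they held a median of 56 genes and 6721 UMIs, with 97.1% globin and 0.0347% mitochondrial UMIs. In tissue they held 145 genes and 1132 UMIs, with 63.4% globin and 19.3% mitochondrial UMIs. Pooled over the tissue libraries they also held transcripts of other cells, among them 2101 S100a9, 1322 Slc34a1 and 865 Alb UMIs. The class is therefore not read as red cells alone in tissue.

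Within a library the 5 maturation genes made up a larger share of the UMIs other than globin in the globin-rich barcodes than in the others. After the globins were taken out, Alas2 made up 45953 to 79079 per 1000000 of the UMIs left in the globin-rich barcodes of 8 ntCZC libraries and 0 to 2.25 per 1000000 in the other barcodes. In 8 tissue libraries it made up 2759 to 7702 and 3.65 to 17.4 per 1000000. Bpgm (medians 45446 and 5.96 per 1000000), Fech (8489 and 13.2), Slc25a37 (5005 and 26.4) and Bnip3l (16041 and 241) followed the same direction in ntCZC. In tissue the medians were 2276 and 13.6 for Bpgm, 1386 and 25.5 for Fech, 2533 and 29.8 for Slc25a37 and 2339 and 141 for Bnip3l. All 5 were higher in the globin-rich barcodes of 8 of 8 libraries of both kinds.

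In tissue all 5 passed as higher by edgeR's quasi-likelihood test with the library as a block, against 2.43% of 13773 genes. The log2 differences were 9.31 ± 0.44 for Alas2, 7.46 ± 0.40 for Bpgm, 5.80 ± 0.36 for Fech, 6.56 ± 0.38 for Slc25a37 and 4.16 ± 0.35 for Bnip3l, and the median over all genes was -0.27. In ntCZC only 252 genes passed the low-count filter, of which 35.3% were higher in the globin-rich barcodes. Alas2 had 2518 UMIs in the globin-rich and 4 in the other barcodes of these 8 libraries, and Bpgm 1842 and 68, so genes could enter that fit through the globin-rich side alone, and no fold or call is given from it. The globin-rich class was set by the globins of the same barcodes, and barcodes of a library share its free RNA.

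The other genes of the program did not move as a block. Of the 14 red cell membrane genes 3 could be tested over all barcodes in ntCZC against tissue, with 1 higher (Gypc, log2 1.09) and 1 lower (the water channel Aqp1, which kidney and endothelium also express, log2 -7.81). Over all genes tested 28.5% were higher and 36% lower. Of the 7 other heme synthesis genes, all tested, 0 were higher and 3 lower, Alad (-2.21 ± 0.38), Alas1 (-1.64 ± 0.20) and Cpox (-1.30 ± 0.20). The share lower was near that over all genes, and the median of that list was -0.27, beside -0.08 over all genes. Alas1 is the housekeeping counterpart of Alas2 and is abundant in liver. Of 14 erythroid regulators and late markers 9 were tested, with 5 higher and 4 lower and a median of 1.58. Those higher included the ring finger gene Mkrn1 (2.94 ± 0.57), Ube2l6 (2.45 ± 0.68) and Isg20 (1.58 ± 0.44). These names are from the higher side only and do not stand for the list.

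Of 8 red cell enzyme and redox genes tested, from a list of 10, 3 were higher and 2 lower. Of 7 mitophagy genes, all tested, 3 were higher and 2 lower, and of 6 mitochondrial iron and heme carriers, all tested, 2 and 2. These counts are a description beside the 28.5% and 36% over all genes. None of the 6 globin genes outside the members that the tables held had enough counts to be tested there. The markers of other cells moved too: all 4 monocyte markers were higher in ntCZC, and all 4 endothelial, epithelial, proximal tubule and hepatocyte markers lower. Their part in the result was not tested.

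In the same lists some transcripts travelled with the globins and others did not. In ntCZC the globin-rich barcodes held 79.5% of Ube2l6, 49.9% of Mkrn1 and 41.4% of Epb41 UMIs. Of other list genes they held 0 of 3136 Tmem14c, 0 of 2256 Pgam1, 0 of 380 Nfe2 and 1 of 266 Xpo7 UMIs. Of Gypc, the membrane gene higher in ntCZC, they held 0 of 87. They held 37 of 37 UMIs of the theta globin gene Hbq1b and 31 of 31 of Hbq1a, and the embryonic globins Hba-x, Hbb-y and Hbb-bh1 had 0 UMIs in all ntCZC barcodes. With the globins taken out, the globin-rich barcodes held 0.350% of ntCZC and 0.355% of tissue UMIs. Of the early heme enzymes they held 13 of 306 Urod UMIs in ntCZC (4.25%), above that share, and 0 of 166 Alad UMIs. They held 0 of 4 UMIs of the erythroid transcription factor gene Gata1 and 0 of 2 of Klf1. The counts of Nfe2, Xpo7, Gypc, Alad, Gata1 and Klf1 were too few to set against that share. In tissue they held 33.0% of Ube2l6, 18.8% of Mkrn1, 0.754% of Urod and 0.370% of Alad UMIs.

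Genes outside the members that followed the globins most closely across libraries included several of those just named. Over 10 ntCZC libraries and 7163 genes with a mean of at least 10 CPM, genes with a Pearson r among the highest with Hbb-bs were Ube2l6 and Fam220a (both 0.96), Rec114 (0.93) and Fam46c (0.92). With Alas2 they were Fam46c (0.97), Ube2l6 (0.93), Apol11b (0.90) and Car2 (0.88). Over 11 tissue libraries Ube2l6 was among the highest for both, at 0.87 with Hbb-bs and 0.89 with Alas2. Bnip3l had r of 0.51 and 0.09 with Hbb-bs in ntCZC and tissue. These are descriptions over libraries that share depth and cell content.

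Ratios within a library do not depend on its total. The balance of the globins was alike in blood and organs. Alpha to beta globin had a median of 0.367 in ntCZC (0.321 to 0.479, n = 10) and 0.375 in tissue (0.336 to 0.540, n = 9), a log2 difference of -0.06 (exact two-sided permutation p = 0.527). How reads that match both alpha genes were counted was not tested, so the size of the alpha to beta ratio is not read as the balance of the chains. Hba-a1 to Hba-a2 was 1.48 and 1.44, and Hbb-bt to Hbb-bs 0.160 and 0.158. The last ratio was 0.0152 in ntCZC het replicate 2, where 14 Hbb-bt and 923 Hbb-bs UMIs were counted, and 0.145 to 0.199 in the other ntCZC libraries. That library had 2 globin-rich barcodes and 0 Alas2 UMIs beside 1237 globin UMIs, which allows up to 2.43 per 1000. Without it the log2 difference in Hbb-bt to Hbb-bs turned from -0.27 to 0.07.

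The maturation genes split against the globins. Alas2 stood at 1.85 per 1000 globin UMIs in ntCZC and 2.30 in tissue (log2 -0.45, exact permutation adjusted p = 0.205, and -0.22 without ntCZC het replicate 2) and Bpgm at 1.39 and 1.80 (-0.48, adjusted p = 0.245). Slc25a37 was lower in ntCZC, 0.517 against 4.60 per 1000 (-2.69, adjusted p = 0.00949), and so was Fech, 0.434 against 2.90 (-2.47, adjusted p = 0.00364). Bnip3l was at 3.86 and 11.8 per 1000 (-2.03, exact permutation adjusted p = 0.0571). Slc25a37, Fech and Bnip3l are also transcribed outside red cells, so ratios were then taken in globin-rich barcodes alone, a choice made after the data had been seen. There Slc25a37 (0.148 and 1.22 per 1000, log2 -3.01), Fech (0.255 and 0.626, -1.34) and Bnip3l (0.455 and 1.24, -1.33) were lower in ntCZC (exact permutation adjusted p at most 0.00139). Alas2 (-0.69, adjusted p = 0.104) and Bpgm (0.15, adjusted p = 0.625) did not differ beyond the spread between libraries in these exact tests. Globin-rich tissue barcodes had the lower globin share, the higher mitochondrial share and the transcripts of other cells given above. Their part in the result was not tested.

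**Figure D3:**
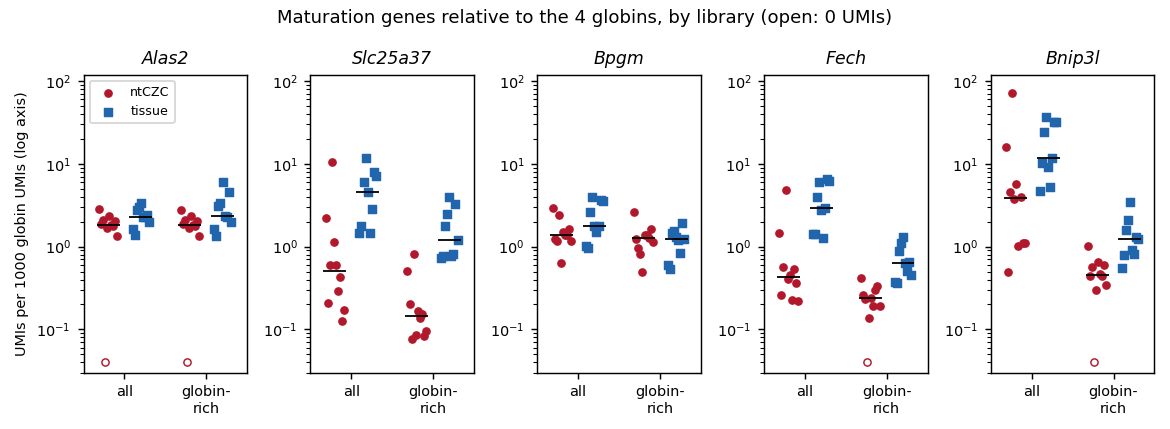
UMIs of each maturation gene per 1000 globin UMIs (log scale) in every grouped ntCZC and tissue library over all barcodes and in globin-rich barcodes, with bars at the medians and open points at the lower edge for 0 UMIs. Alas2 and Bpgm overlap between the kinds (medians 1.85 and 2.30, 1.39 and 1.80), while Slc25a37 had medians of 0.513 and 4.60 with nothing added to the counts.

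By bin, Alas2 stood at 1.81 in ntCZC and 2.29 in tissue per 1000 globin UMIs in barcodes under 200 genes, close to its ratios over all barcodes. Bpgm stood at 1.18 and 1.08 per 1000 there, and its log2 difference was 0.37 in place of -0.48 (exact permutation adjusted p = 0.473 and 0.245). In barcodes with 500 or more genes only 7 ntCZC libraries reached 20 globin UMIs, with 25 to 173 each, and 5 of these had 0 Alas2 UMIs. Ratios to the globins there follow from the low globin level given above and are not compared. In the middle bin Hbb-bt to Hbb-bs was 0.290 (0.274 to 0.331, n = 3) in ntCZC and 0.164 (0.146 to 0.203, n = 9) in tissue. The 3 ntCZC libraries (wt replicate 3 and null replicates 1 and 3) are those with enough globin UMIs there, from 1, 4 and 1 globin-rich barcodes, and wt replicate 3 and null replicate 3 held 6 barcodes each in that bin, so the ratio is given as a description.

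Globin-rich barcodes with more genes had relatively more Hbb-bt. In the 3 ntCZC and 7 grouped tissue libraries that held globin-rich barcodes on both sides of 200 genes, a split chosen after the data had been seen and given as a description, Hbb-bt to Hbb-bs was higher at 200 or more genes in 10 of 10. The medians were 0.165 and 0.213, and the log2 difference was 0.42 ± 0.32 (SD). The ratio went from 0.173 to 0.330 in ntCZC wt replicate 3, from 0.147 to 0.274 in null replicate 1 and from 0.189 to 0.290 in null replicate 3, with 1, 4 and 1 barcodes on the upper side. In tissue wt replicate 1, with 293 barcodes there, it went from 0.131 to 0.206. Bpgm per globin UMI was higher in 8 of 10 (log2 0.89 ± 1.06), as were Slc25a37 (0.47 ± 0.54) and Fech (0.66 ± 0.94), and Bnip3l (0.57 ± 0.73) and Alas2 (0.20 ± 0.32) were higher in 7. Alpha to beta globin moved by 0.03 ± 0.05. The tissue barcodes on the upper side of these 7 libraries held 59.4% globin UMIs at the median and those on the lower side 72.0%.

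**Figure D4:**
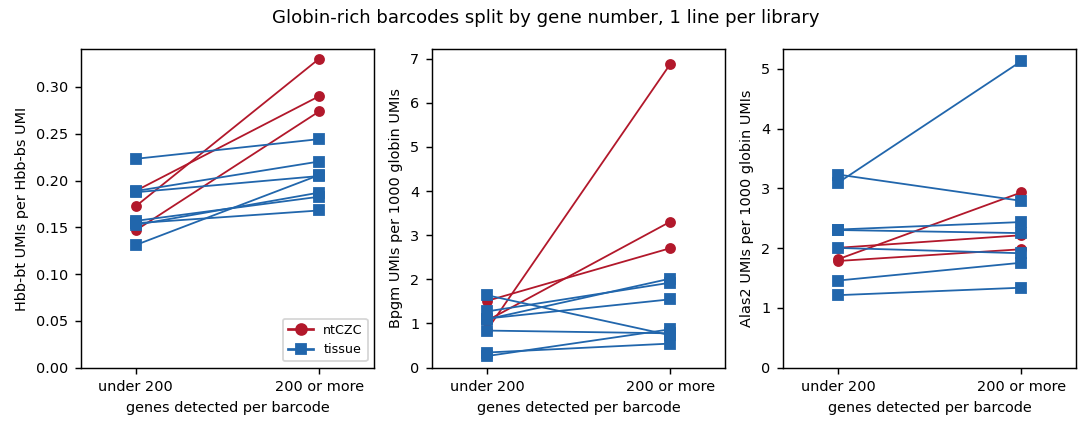
Hbb-bt to Hbb-bs, and Bpgm and Alas2 per 1000 globin UMIs, in globin-rich barcodes under 200 genes and with 200 or more genes of the same library, each line 1 library. The Hbb-bt to Hbb-bs ratio rises in all 10 ntCZC and grouped tissue libraries with both kinds of barcode, and Bpgm rises in 8.

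The study's genotypes were compared next, to ask whether these transcripts differed with the labelled Nalcn genotype. In ntCZC Hba-a1 stood at 2558 and 133186 CPM in the wt libraries, at 6120, 501, 8322 and 8987 CPM in het replicates 1 to 4, and at 41389, 10109, 50582 and 48242 CPM in null replicates 1 to 4. Each null library lay above each het library, and the wt libraries lay on both sides. Hbb-bs stood at 26125, 2485, 28208 and 39764 CPM in het and 156653, 38055, 199543 and 148531 CPM in null, where null replicate 2 fell within the het range. Alas2 stood at 86.1, 0, 77.5 and 140 CPM in het and 456, 110, 656 and 342 CPM in null, with the same overlap.

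No member passed in null against het over all barcodes, against 0% of 9379 genes in either direction. The log2 differences were 1.81 to 1.98 for the globins (SE 1.45 to 1.71), 1.71 ± 1.57 for Alas2, 2.34 ± 1.51 for Bpgm, 1.38 ± 0.96 for Fech, 0.51 ± 0.56 for Bnip3l and 0.06 ± 0.71 for Slc25a37 (edgeR quasi-likelihood test, adjusted p 0.826 to 1.00). None had an unadjusted p under 0.05 and none passed by DESeq2. Sex was a covariate, since 1 of 4 null and 3 of 4 het libraries were male. This fit, and those within bins, also held wt libraries. The SEs and edgeR p-values of null against het thus rest on the spread of the unlike wt libraries too.

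Within bins no member passed either. Among barcodes under 200 genes, in 4 null and 2 het libraries, 0 of 9 members passed against 0% of 95 genes, and the globins differed by 0.09 to 0.24 (SE 0.20 to 0.32), Alas2 by -0.03 ± 0.43 and Bpgm by 0.83 ± 0.63. In the middle bin, with 3 libraries a group, 0 of the 7 members tested passed (0% of 399 genes), with 5.88 to 9.94 for the globins, Alas2 and Bpgm (SE 2.79 to 6.38), and among those with 500 or more genes, with 4 a group, 0 of 8 (0% of 10119 genes). No member in these bins had an unadjusted p under 0.05 by edgeR or passed by DESeq2. Of 16 ratios between members, none passed in null against het after adjustment (exact permutation, lowest adjusted p = 0.381, smallest possible p 0.0286). Alpha to beta globin was 0.387 in null and 0.336 in het, and Alas2 1.80 and 1.91 per 1000 globin UMIs. Slc25a37 per 1000 globin UMIs was 0.232 in null (0.132 to 0.438) and 0.879 in het (0.595 to 10.9), without overlap, at the smallest p that the exact permutation test allows (0.0286, adjusted p = 0.381). In barcodes under 200 genes it was 0.107 and 0.134. Bnip3l was 1.11 and 5.16 per 1000 over all barcodes (log2 -2.62, exact permutation p = 0.0571, adjusted p = 0.381) and 0.428 and 0.493 under 200 genes (-0.14). Over all barcodes the Bnip3l difference was -1.63 without het replicate 2.

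Against wt the ntCZC groups rested on 2 unlike libraries. In null against wt no member passed (0% of 9379 genes), with log2 differences of -3.72 to -3.39 for the globins, 1 member (Slc25a37, -2.59) at an unadjusted p of 0.0306 by edgeR's quasi-likelihood test and none by DESeq2. In het against wt no member passed either, against 0.107% of genes, with -5.60 to -5.20 for the globins, -5.06 ± 1.38 for Alas2 and -5.12 ± 1.23 for Bpgm (adjusted p 0.298 to 0.403). All 9 had an unadjusted p under 0.05, and 7, all but Alas2 and Bnip3l, passed by DESeq2. Without wt replicate 1, which leaves wt replicate 3 alone and assumes that it varies like the other groups, 8, all but Hbb-bt, passed in het against wt and 1, Slc25a37, in null against wt. wt replicate 3 held 77 barcodes. Without it, with wt replicate 1 alone, no member passed in either comparison, and the globin differences turned to 2.67 to 2.97 in null against wt and 0.72 to 1.17 in het against wt, so their direction rests on wt replicate 3.

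In tissue Hbb-bs stood at 2098 to 19931 CPM over the genotypes. Its medians were 5579 in wt (n = 5), 12860 in het (n = 2) and 2794 in the libraries labelled null (n = 2). The Nalcn counts could not check the null label. For Hbb-bs both libraries labelled null lay within the wt range, and het replicate 1 lay above every wt library. No member passed in null against wt (0.0112% of 17863 genes passed) or in het against wt (0%), and DESeq2 called none. Log2 differences in null against wt were -1.89 to -1.52 for the globins (SE 0.79 to 0.90), -1.71 ± 0.69 for Alas2, the only member at an unadjusted p under 0.05 (0.0384, edgeR quasi-likelihood test), and -0.53 to -0.15 for the other 4. In het against wt they were 0.06 to 0.20 for the globins and -0.30 to 0.47 for the others.

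**Figure D5:**
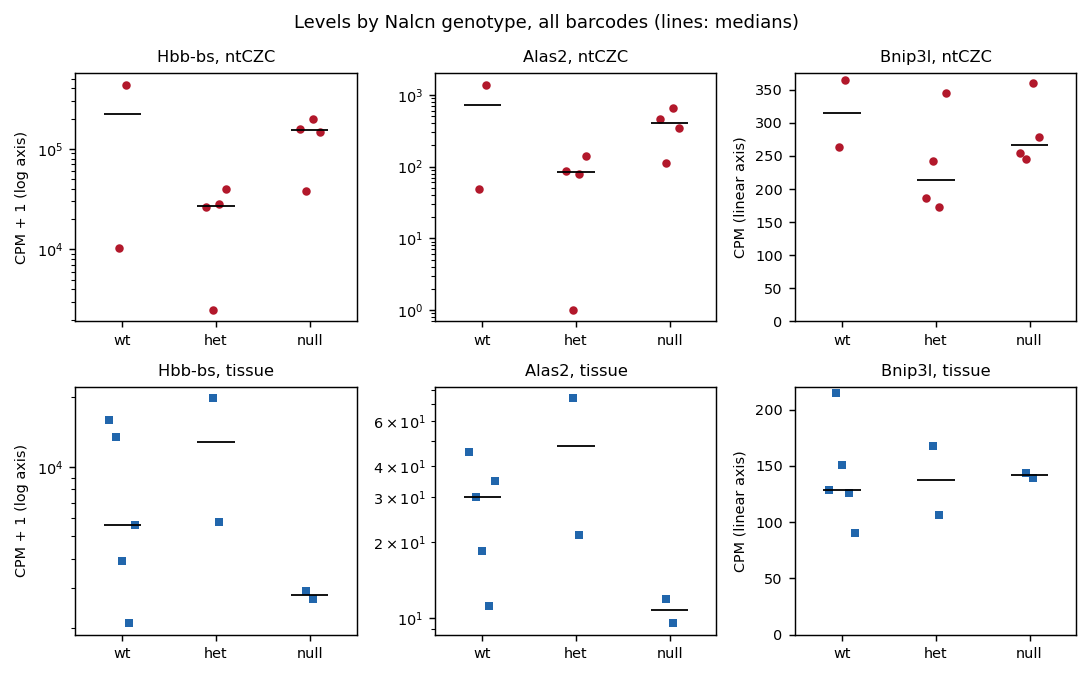
CPM of Hbb-bs, Alas2 and Bnip3l in each ntCZC and tissue library by genotype, over all barcodes, with bars at the medians (log axis of CPM + 1 for Hbb-bs and Alas2, linear axis from 0 for Bnip3l). ntCZC null lies above het for Hbb-bs but for null replicate 2 at 38055 CPM, and the 2 wt libraries lie at 10312 and 436756 CPM.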

How the data were processed

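Single-cell 3' RNA libraries (10x Genomics v3) of sorted blood, pooled organs and PBMC were used. The authors deposited raw UMI counts per gene and called barcode, aligned to mm10; per the labels Cell Ranger 2.1.1 was used, whereas the matrix headers give 3.0.2. Counts were summed per library in all barcodes and by detected genes (under 200, 500 or more, and a middle bin), with at least 10 barcodes per library and bin. Hashtag calls were not used, and doublets were not removed.

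Sums were tested with edgeR 4.0.16 (quasi-likelihood test, TMM, low-count filter, sex as covariate, Benjamini-Hochberg over all genes tested, threshold 0.05), with DESeq2 1.42.0 as an alternative, and the steps were tested on simulated data. Differences between bins and between globin-rich and other barcodes used the library as a block. Ratios needed 20 globin UMIs, had 0.5 added to both counts before logs, and were compared by exact two-sided permutation tests (numpy 2.4.6). Same-numbered libraries did not deviate together across genes, which does not exclude that blood and organs came from the same mice. Sex and age were equal in the same-numbered ntCZC and tissue libraries of wt replicates 1 and 3, het replicate 2 and null replicate 2. In het replicate 1 and null replicate 3 they were not. Named genes were the members, called genes of the lists and, as a description, genes most correlated with Hbb-bs or Alas2. List genes named by their UMIs in globin-rich barcodes were chosen after their values were seen. These are Hbq1a, Hbq1b, other globins, Epb41, Urod, Gata1, Klf1, Tmem14c, Pgam1, Nfe2, Xpo7 and Gypc. Members and lists were chosen with earlier results of these data known. Intervals and limits (3 counts for a 0) cover counting error only. A few list genes are not reported here.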

Additional observations from a re-analysis of the deposited data

Results flagged for a closer look

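In ntCZC het replicate 2 the ratio of Hbb-bt to Hbb-bs over all barcodes was 0.0152, far below the other 3 het libraries. The same library had 10.5 Slc25a37, 4.85 Fech and 72.8 Bnip3l UMIs per 1000 globin UMIs, far above the others. It had 1237 globin UMIs in all and 2 globin-rich barcodes. In ntCZC null replicate 2 Bnip3l stood at 3.98 per 1000 globin UMIs, far above the other 3 null libraries. These 5 came from 51 groups examined, and chance alone marks about 1 group in 20.

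The log2 difference between ntCZC and tissue was larger in barcodes under 200 genes than in barcodes with 500 or more genes, by a test of the difference itself (edgeR's quasi-likelihood test with the library as a block). The excess was 9.55 for Hba-a1, 9.55 for Hba-a2, 9.34 for Hbb-bs and 9.27 for Hbb-bt. It was 5.14 for Bpgm, 2.75 for Fech and 1.36 for Bnip3l. For Alas2 the fit gave 7.85. Alas2 had 3 UMIs in ntCZC barcodes with 500 or more genes, so neither this size nor its call is read. The median over all genes was -9.90. The bins hold unlike barcodes in ntCZC and tissue, and a large difference for the globins was set by the bins, so these excesses are a description.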

How the results depend on the processing

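Counts of members called in either direction were equal or within 1.5 times in 100 of 109 comparisons with another setting. The same held in 169 of 174 that left out 1 library. Counts that stayed at 0 are among these. Direction was not part of this check: with at most 20% mitochondrial UMIs Slc25a37 under 200 genes passed as lower. With a replicate block, which keeps only same-numbered libraries, 1 member passed in ntCZC against tissue over all barcodes. Under it 4 passed under 200 genes and 6 in the middle bin (200 or more but under 500 genes). The block changed no other count of calls beyond 1.5 times. Whether the numbers pair the animals is not known. With no low-count filter 2 members passed under 200 genes, 2 in null against het in the middle bin and 7 in het against wt. DESeq2 called 4 in the middle bin and 7 in het against wt, and bin edges of 150 and 750 genes gave 1 there, where Bpgm turned to 3.51. Leaving out 1 library gave 0 to 9 members in the middle bin, 0 to 1 in null against wt and 0 to 8 in het against wt. Slc25a37 under 200 genes turned to -0.10 with no filter, -0.98 with at most 20% mitochondrial UMIs and -0.21 with globins left out.

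Bnip3l to globins in ntCZC against tissue passed at -2.38 with at most 20% mitochondrial UMIs and at -1.33 in globin-rich barcodes, and ran from -2.51 to -1.72 when 1 library was left out. In globin-rich barcodes Bpgm to globins turned to 0.15 and, in null against het, Fech to globins to 0.0444. Leaving out 1 library moved Hbb-bt to Hbb-bs from -0.34 to 0.0684 in ntCZC against tissue, and in null against het Bpgm to globins from -0.30 to 0.41 and Alas2 to globins from -0.23 to 0.61. The cause was not tested. Null against het in the middle bin could not be fitted with at most 20% mitochondrial UMIs or at least 20 barcodes, nor globin-rich ntCZC barcodes under 200 genes only. In gene-rich ntCZC barcodes only 3 Alas2 UMIs were counted, which limits the precision of its level.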
